A study of Mus musculus with 16 samples.

Results

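Serine palmitoyltransferase is the enzyme of the endoplasmic reticulum that joins serine to palmitoyl-CoA, the first and rate-limiting step of sphingolipid and ceramide synthesis. Its core pairs SPTLC1, the subunit that every form of the enzyme needs, with SPTLC2 or SPTLC3, which carry the catalytic lysine. A small subunit, encoded by Sptssa or Sptssb, binds the core, raises its activity and affects which acyl-CoA it takes. The 3 Ormdl proteins sit in the same complex and restrain it when ceramide is plentiful. The 8 genes that encode these subunits and regulators in the mouse, Sptlc1, Sptlc2, Sptlc3, Sptssa, Sptssb, Ormdl1, Ormdl2 and Ormdl3, were taken by symbol from a table of 55146 genes, and all 8 had 1 row each.

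The study asked how sonidegib and an antibody against PD-L1, alone and together, act on mammary tumours that grow from the PyMT model. Sonidegib inhibits Smoothened, the transducer of Hedgehog signals, and PD-L1 is the ligand of the T cell checkpoint receptor PD-1. The 16 tumours came as 4 per group. The combination group received the antibody at 5 mg/kg 2 times a week and sonidegib at 20 mg/kg daily. The sonidegib group received only sonidegib and the anti-PD-L1 group only the antibody, at those doses, and the vehicle group neither drug, all for 28 days. Shared by all groups, the tumours arose in MMTV-PyMT mice 12 weeks of age, in which a mammary tumour virus promoter drives polyoma middle T antigen in mammary epithelium, and were reimplanted into mammary fat pad number 4 of FVB hosts. No source used here says which tumours share a donor, so a p-value speaks only of the spread among these 16 tumours.

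Levels are given as FPKM, which scales fragments to transcript length and to the mapped fragments of the library, so that levels of different genes can be set beside each other per length. An approximate estimate of the depth came to 31.6 to 56.5 M fragments per library (M, mega). Vehicle replicate 3 stood apart, with 11361 genes at 1 FPKM or more against 13107 to 14784 in the other 15 libraries, and a median log2 deviation over genes of -0.764 against -0.129 to 0.149. Markers of luminal epithelium, the cell of origin of these tumours, summed over 9 genes to 2394 to 4351 FPKM with the combination, 2343 to 4042 with sonidegib, 2076 to 3482 with anti-PD-L1 and 1148 to 4243 with vehicle. In bulk tumours, fewer cells of a type and less RNA per cell cannot be told apart.

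Changes were tested with limma on log2(FPKM + 1) over the 15105 genes that reached 1 FPKM in 4 or more libraries, with Benjamini-Hochberg adjustment over those genes. Sptlc1, Sptlc2, Sptssa, Ormdl1, Ormdl2 and Ormdl3 passed that filter, with 1 FPKM or more in all 16 libraries. Sptlc3 reached 1 FPKM in 2 libraries, and Sptssb was listed at 0 in all 16. Against vehicle, the combination raised 3 of the 6 tested members past an adjusted p of 0.05, namely Sptssa, Ormdl1 and Ormdl2, where 11.3% of all tested genes passed in either direction and 10.3% upward. Sptlc1, Sptlc2 and Ormdl3 did not pass. Neither single drug moved a member past the threshold, and no other gene passed there either.

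The promoters of these 3 members, and of Ormdl3, which did not pass, are shown because the levels of Sptssa, Ormdl1 and Ormdl2 ran close to each other over the 16 libraries (Pearson r of 0.89 to 0.97), and Ormdl3 less so (0.24 to 0.50 with these 3). With GC and length trends of the libraries removed the gap was smaller, at 0.65 to 0.87 among the 3 and 0.42 to 0.49 with Ormdl3. Each stretch ends at the base before the annotated gene start and leaves out bases that lie in any annotated exon. The sequences are RefSeq's on GRCm38.p6, written 5′ to 3′ on the strand of the gene, and capitals mark CCAAT boxes read on either strand (CCAAT or ATTGG).
Sptssa, chr12:54656574-54656822, minus strand: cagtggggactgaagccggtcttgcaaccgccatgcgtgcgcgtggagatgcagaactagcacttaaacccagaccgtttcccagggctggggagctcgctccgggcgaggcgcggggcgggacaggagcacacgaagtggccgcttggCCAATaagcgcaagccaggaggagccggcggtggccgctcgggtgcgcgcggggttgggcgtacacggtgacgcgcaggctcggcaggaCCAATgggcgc
Ormdl1, chr1:53297019-53297094, plus strand: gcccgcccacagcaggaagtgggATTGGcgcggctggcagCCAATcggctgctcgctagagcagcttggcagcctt
Ormdl2, chr10:128821646-128821879, minus strand: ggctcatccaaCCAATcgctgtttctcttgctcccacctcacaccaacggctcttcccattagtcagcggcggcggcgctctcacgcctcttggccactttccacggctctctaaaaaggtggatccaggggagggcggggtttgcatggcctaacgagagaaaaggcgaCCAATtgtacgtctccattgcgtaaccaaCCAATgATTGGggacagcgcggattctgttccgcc
Ormdl3, chr11:98587369-98587495, minus strand: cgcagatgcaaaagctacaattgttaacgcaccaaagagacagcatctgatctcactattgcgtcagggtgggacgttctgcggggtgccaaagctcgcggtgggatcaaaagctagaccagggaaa

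The CCAAT box, which the trimeric factor NF-Y binds, was counted in the 250 bases before the RefSeq start. It occurred 2 times in the window of Sptssa, 2 times for Ormdl1 and 5 times for Ormdl2, of which 4 lie in the stretch shown. None occurred in the windows of Ormdl3, Sptlc3 or Sptssb, while Sptlc1 had 1 and Sptlc2 had 3. Of 32851 mouse promoter windows of that length in the RefSeq table, 33.8% held at least 1 CCAAT box. The GC box (GGGCGG, both strands) occurred 2 times for Sptlc2 and Ormdl3 and 1 time for Sptlc1, Sptssa, Sptssb, Ormdl1 and Ormdl2. It was absent for Sptlc3 and present in 32.7% of all windows. The cyclic AMP response element (TGACGTCA) occurred 1 time for Ormdl3, for no other member, and in 1.55% of all windows. The TATA box, searched as TATAAA on both strands, was found in the window of none of the 8 genes and in 12.4% of all windows. The Ormdl1 stretch is short because exons of Pms1, on the opposite strand, cover 174 bases of its window. Some windows also hold bases of the member's own annotated exons, 123 for Ormdl3, 46 for Sptssb, 36 for Sptlc1, 16 for Ormdl2 and 1 for Sptssa. Only 127 bases of the Ormdl3 window lie outside exons, so these counts do not compare like stretches. These matches describe the letters of the windows only.

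Sptlc1 encodes the obligate subunit of the core (ENSMUSG00000021468.8, chr13:53332748-53377397 on GRCm38, minus strand). It stood at 17.82, 17.64, 16.24 and 17.71 FPKM in combination tumours, 16.06, 20.34, 17.50 and 14.79 in sonidegib tumours, 19.25, 16.80, 20.78 and 17.03 in anti-PD-L1 tumours and 16.83, 15.73, 7.33 and 20.58 in vehicle tumours. Outside vehicle replicate 3, the lowest of all 16, every library lay between 14.79 and 20.78 FPKM, and each pair of groups overlapped. The log2 change against vehicle was 0.27 for the combination (SE 0.25, limma adjusted p = 0.467), 0.25 for sonidegib (adjusted p = 0.51) and 0.35 for anti-PD-L1 (adjusted p = 0.378). Without vehicle replicate 3 the change with the combination was -0.02 (95% interval with all libraries -0.25 to 0.79), so its sign rests on that library. It also turns negative, at -0.06, when libraries are scaled by the median of ratios, a scaling that takes the median change of all genes to 0.01 from the 0.257 that it has in unscaled FPKM.

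Sptlc2, the usual catalytic partner of Sptlc1, is the longest transcript of the family at 6710 bases (ENSMUSG00000021036.10, chr12:87305058-87388355, minus strand). Its level was 21.22, 21.48, 19.57 and 21.31 FPKM in combination tumours, 19.52, 22.85, 24.96 and 18.33 in sonidegib tumours, 21.89, 20.37, 26.41 and 17.28 in anti-PD-L1 tumours and 12.27, 11.84, 5.56 and 28.13 in vehicle tumours. Vehicle replicates 1, 2 and 3 lay below all 12 treated tumours, and vehicle replicate 4 lay above all of them. The log2 changes were nearly the same in the 3 treated groups, 0.70 with the combination (SE 0.32, adjusted p = 0.126), 0.73 with sonidegib (adjusted p = 0.159) and 0.73 with anti-PD-L1 (adjusted p = 0.175), none past the limma threshold. Without vehicle replicate 4 they were 1.08, 1.10 and 1.10 with adjusted p-values of 0.00567, 0.00944 and 0.00851, when 32.8%, 26.3% and 26.0% of all genes passed. Without vehicle replicate 3, the change with the combination was 0.36 (adjusted p = 0.344).

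Sptlc3 encodes the alternative catalytic subunit, which accepts other acyl-CoA substrates and makes unusual sphingoid bases (ENSMUSG00000039092.9, chr2:139493913-139637674, plus strand). It was scarce, at 0.255, 2.61, 1.08 and 0.667 FPKM in combination tumours, 0.544, 0.0746, 0.263 and 0.355 in sonidegib tumours, 0.726, 0.273, 0.279 and 0.136 in anti-PD-L1 tumours and 0.0901, 0.206, 0.0515 and 0.172 in vehicle tumours. By the estimated depth these values stand for roughly 33 to 293 fragments in combination tumours, 10 to 79 with sonidegib, 18 to 85 with anti-PD-L1 and 4 to 20 with vehicle. All 4 combination tumours lay above all 4 vehicle tumours, by 1.02 FPKM in the mean (1.15 ± 1.03 against 0.130 ± 0.0714, SD, n = 4 each). The exact two-sided permutation p was 0.0286, the smallest that 4 against 4 allows, and 0.171 after Benjamini-Hochberg adjustment over the 6 pairs of groups. Among tested genes, 3.12% were likewise above vehicle without overlap. The other 5 pairs overlapped, with exact p of 0.0857 for anti-PD-L1 against vehicle and above that for the rest.

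The level of Sptlc3 varied most among the members detected, with the highest library 50.7 times the lowest, and combination replicate 2 alone reached 2.61 FPKM. Without that library the difference from vehicle was 0.536 FPKM, and the groups still did not overlap. Beside Sptlc2, with a mean of 19.56 FPKM over the 16 libraries, Sptlc3 averaged 0.486 FPKM.

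Sptssa encodes the small subunit ssSPTa, an activator of the core (ENSMUSG00000044408.7, chr12:54645392-54656573, minus strand). It was at 14.86, 42.79, 21.76 and 41.09 FPKM in combination tumours, 21.58, 11.29, 17.07 and 18.00 in sonidegib tumours, 22.58, 21.78, 19.61 and 15.72 in anti-PD-L1 tumours and 7.98, 8.13, 4.56 and 17.84 in vehicle tumours. Combination replicates 2 and 4 were the highest of all 16, while combination replicate 1 lay below vehicle replicate 4, so the groups overlapped. By group mean the order was 30.1 ± 13.9 FPKM with the combination, 19.9 ± 3.07 with anti-PD-L1 alone, 17.0 ± 4.27 with sonidegib alone and 9.63 ± 5.72 with vehicle (SD, n = 4 each). Of the neighbours in that order, no pair differed past the threshold.

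Sptssa had the largest change of the tested members with the combination, 1.57 on the log2 scale, or 2.97-fold of FPKM + 1 (SE 0.36, 95% interval 0.82 to 2.32, limma adjusted p = 0.0342). The call held in 11 of the 16 fits that leave out 1 library, and with the GC trend removed the change was 0.86 (adjusted p = 0.0473). Anti-PD-L1 alone gave 1.11 (SE 0.36, adjusted p = 0.158) and sonidegib alone 0.87 (SE 0.36, adjusted p = 0.149). The combination did not differ past the threshold from anti-PD-L1 (0.46, 95% interval -0.29 to 1.21, adjusted p = 0.883) or from sonidegib (0.70, 95% interval -0.05 to 1.45, adjusted p = 0.959). These 3 vehicle comparisons share the same 4 vehicle libraries.

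Sptssb, the gene of the small subunit ssSPTb that lets the enzyme take longer acyl-CoA, was listed at 0 FPKM in every library (ENSMUSG00000043461.13, chr3:69819542-69859940, minus strand). A listed 0 in these files can be a low level or a failed estimate, and no fold or limit is given for it. All small subunit signal in the table was therefore that of Sptssa.

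**Figure D1:**
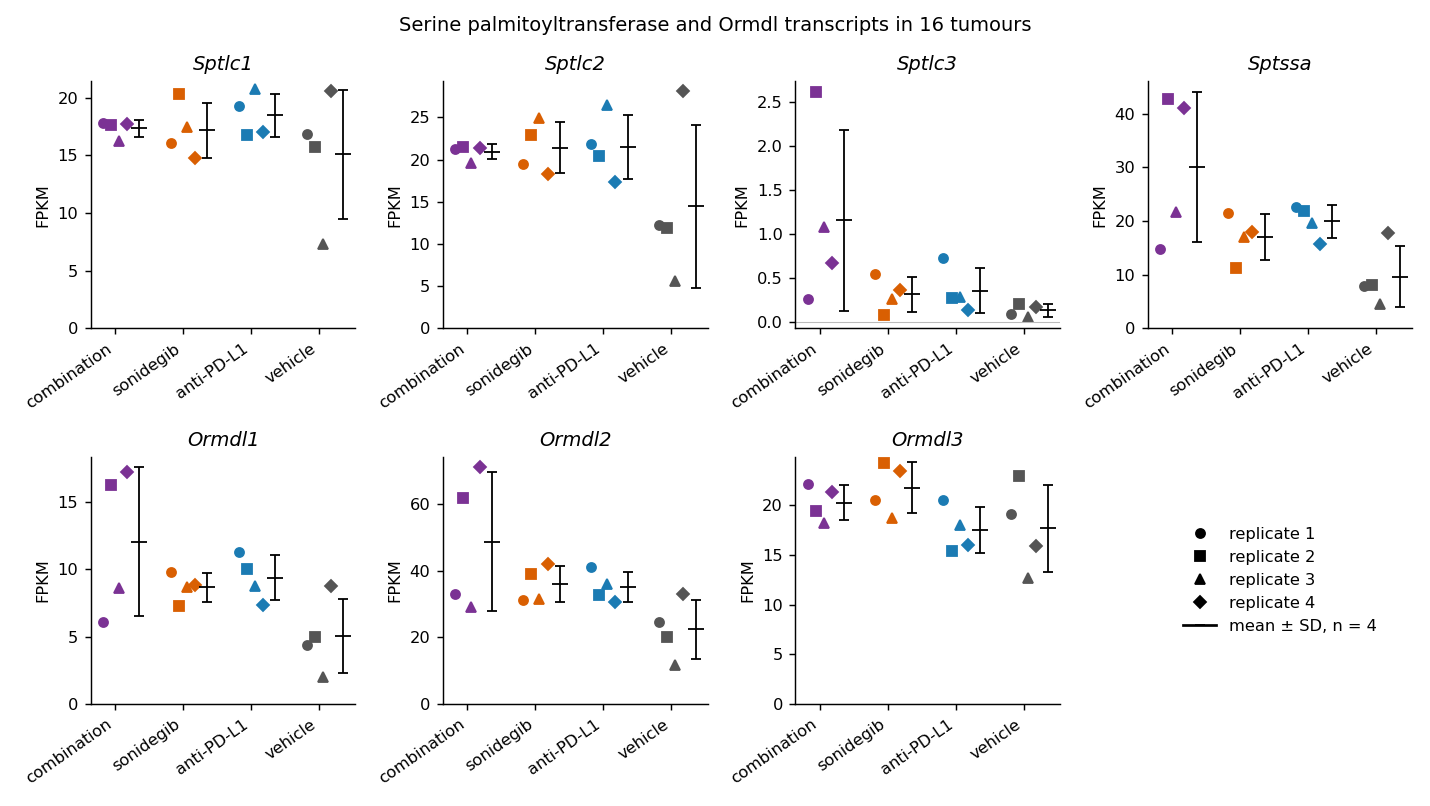
FPKM (vertical axes, starting at 0) of the 7 members with any signal in the 16 tumours, by group from combination to vehicle, with a marker shape per replicate and the mean and SD at the right of each group. Sptssa, Ormdl1 and Ormdl2 are highest in combination replicates 2 and 4, and vehicle replicate 4 lies above the other 3 vehicle tumours in each panel except those of Sptlc3 and Ormdl3.

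Ormdl1 encodes the first of the ceramide-responsive regulators (ENSMUSG00000026097.9, chr1:53297095-53310309, plus strand). Its level was 6.12, 16.22, 8.62 and 17.24 FPKM in combination tumours, 9.78, 7.24, 8.71 and 8.86 in sonidegib tumours, 11.26, 10.04, 8.76 and 7.38 in anti-PD-L1 tumours and 4.41, 5.00, 2.04 and 8.73 in vehicle tumours. As for Sptssa, combination replicates 2 and 4 stood highest, and vehicle replicate 4 reached the treated range. Ormdl1 rose by 1.12 on the log2 scale with the combination (SE 0.32, 95% interval 0.44 to 1.80, limma adjusted p = 0.0398), a call that held in 5 of the 16 fits that leave out 1 library and was lost with the GC trend removed (0.41, adjusted p = 0.126). This stood beside 0.79 with sonidegib and 0.88 with anti-PD-L1, which did not pass (adjusted p = 0.149 and 0.158). Gm28778, a gene model that shares exons with Ormdl1 on the same strand, was listed at no more than 0.485 FPKM in any library.

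Ormdl2, the second regulator, was the most abundant member per length, with a mean of 35.59 FPKM over all libraries (ENSMUSG00000025353.5, chr10:128817902-128821645, minus strand). It had 33.06, 61.77, 29.11 and 71.31 FPKM in combination tumours, 31.15, 39.10, 31.61 and 42.09 in sonidegib tumours, 41.05, 32.65, 36.14 and 30.75 in anti-PD-L1 tumours and 24.71, 20.10, 11.68 and 33.12 in vehicle tumours. Combination replicates 1 and 3 lay within or below the range of the single drugs, and vehicle replicate 4 lay just above combination replicate 1. The rise with the combination was 1.08 on the log2 scale (SE 0.32, 95% interval 0.41 to 1.74, limma adjusted p = 0.0409), a call that held in 5 of 16 such fits. It was 0.51 (adjusted p = 0.156) with the GC trend removed and 0.39 (adjusted p = 0.24) with GC and length trends removed. With sonidegib the change was 0.74 (adjusted p = 0.157) and with anti-PD-L1 0.71 (adjusted p = 0.184). Exons of Dnajc14, a cochaperone gene on the opposite strand, overlap those of Ormdl2, and Dnajc14 averaged 17.69 FPKM with the combination, 19.49 with sonidegib, 20.12 with anti-PD-L1 and 17.77 with vehicle. Whether fragments were assigned by strand is not given in the sources used, so reads of that overlap are uncertain.

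Ormdl3, the third regulator and in humans a gene of a locus linked to asthma, kept the narrowest range of the family, with the highest library 1.91 times the lowest (ENSMUSG00000038150.7, chr11:98581256-98587368, minus strand). It stood at 22.08, 19.45, 18.23 and 21.31 FPKM in combination tumours, 20.55, 24.25, 18.72 and 23.41 in sonidegib tumours, 20.56, 15.44, 18.05 and 15.96 in anti-PD-L1 tumours and 19.11, 22.96, 12.70 and 15.86 in vehicle tumours. No group was apart from another. Its log2 change was 0.22 with the combination (95% interval -0.23 to 0.66, limma adjusted p = 0.493), 0.31 with sonidegib (adjusted p = 0.328) and 0.01 with anti-PD-L1 (adjusted p = 0.981). Scaling by the median of ratios turned the first of these to -0.12.

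**Figure D2:**
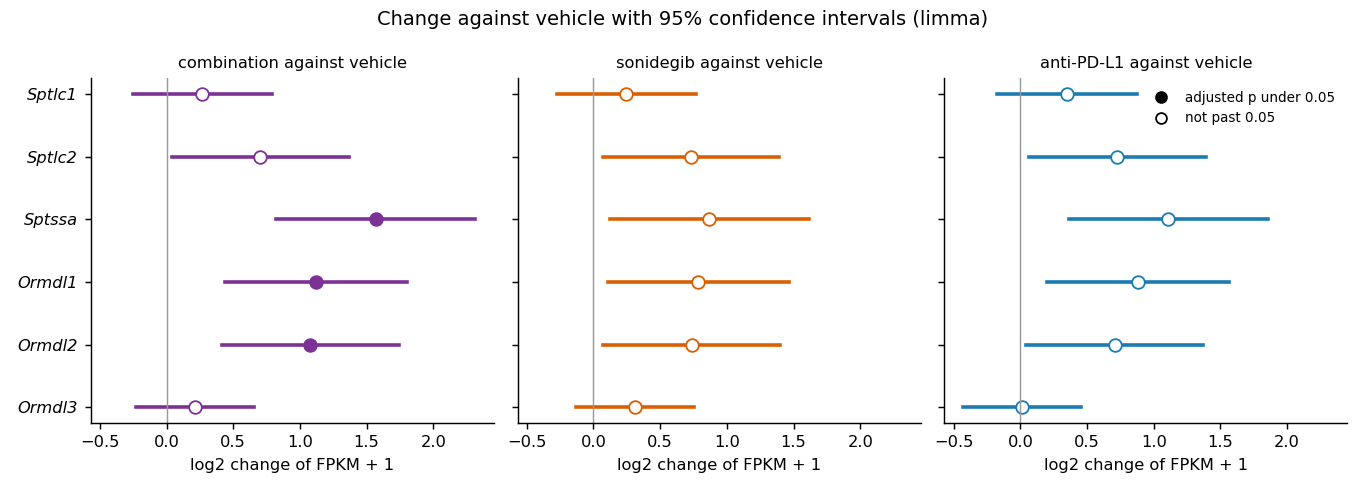
Log2 change of FPKM + 1 (horizontal axes) of the 6 tested members against vehicle, for the combination, sonidegib and anti-PD-L1, with 95% confidence intervals from limma, filled where the adjusted p is under 0.05. Only Sptssa, Ormdl1 and Ormdl2 with the combination are filled, at 1.57, 1.12 and 1.08, and all 3 panels share the vehicle libraries.

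Within the Ormdl trio, Ormdl3 had the smallest log2 change of the 3 in each comparison with vehicle. Ormdl3 made up 27.0% ± 8.57 of summed Ormdl FPKM with the combination, 32.7% ± 1.38 with sonidegib, 28.2% ± 1.24 with anti-PD-L1 and 40.7% ± 9.66 with vehicle (SD, n = 4 each). Ormdl2 held the largest share of the 3 by group mean, 58.6% with the combination, 54% with sonidegib, 56.7% with anti-PD-L1 and 48.7% with vehicle. The sum of the 3 was 81.1 ± 26.6, 66.4 ± 7.28, 62.0 ± 8.10 and 45.1 ± 13.2 FPKM in that order of groups. The groups overlapped in the share of Ormdl3, with 36% in combination replicate 1 and 27.5% in vehicle replicate 4, and these shares are a description with no test.

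Set against Sptlc1 within each library, the other members showed how the parts of the complex stood to each other at the RNA level, again with no test. The ratio of Sptssa to Sptlc1 was 0.834, 2.43, 1.34 and 2.32 in combination tumours, 1.34, 0.555, 0.976 and 1.22 in sonidegib tumours, 1.17, 1.30, 0.944 and 0.923 in anti-PD-L1 tumours and 0.474, 0.517, 0.622 and 0.867 in vehicle tumours. All 4 anti-PD-L1 tumours lay above all 4 vehicle tumours in this ratio, as they did for 2.99% of 15104 tested genes set over Sptlc1 in the same way, whereas 1 combination tumour and 1 sonidegib tumour fell within the vehicle range. Summed Ormdl over Sptlc1 had a median of 4.49 with the combination, 3.65 with sonidegib, 3.32 with anti-PD-L1 and 2.96 with vehicle, and vehicle replicate 3, at 3.60, lay above both lower combination tumours.

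The ratio of Sptlc2 to Sptlc1, both partners of the common core, was 1.19 to 1.22 in the 4 combination tumours, 1.12 to 1.43 with sonidegib and 1.01 to 1.27 with anti-PD-L1. In vehicle tumours it was 0.729, 0.753 and 0.759 in replicates 1 to 3 and 1.37 in replicate 4. The GC slopes of these 4 libraries, a measure taken up further on, were 4.55, 3.32 and 3.69 in replicates 1 to 3 and -0.513 in replicate 4. Combination replicate 1, with a slope of 2.13, had a ratio of 1.19, and sonidegib replicate 2, with a slope of 2.72, had 1.12. The part of the slopes in the ratio was not tested.

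**Figure D3:**
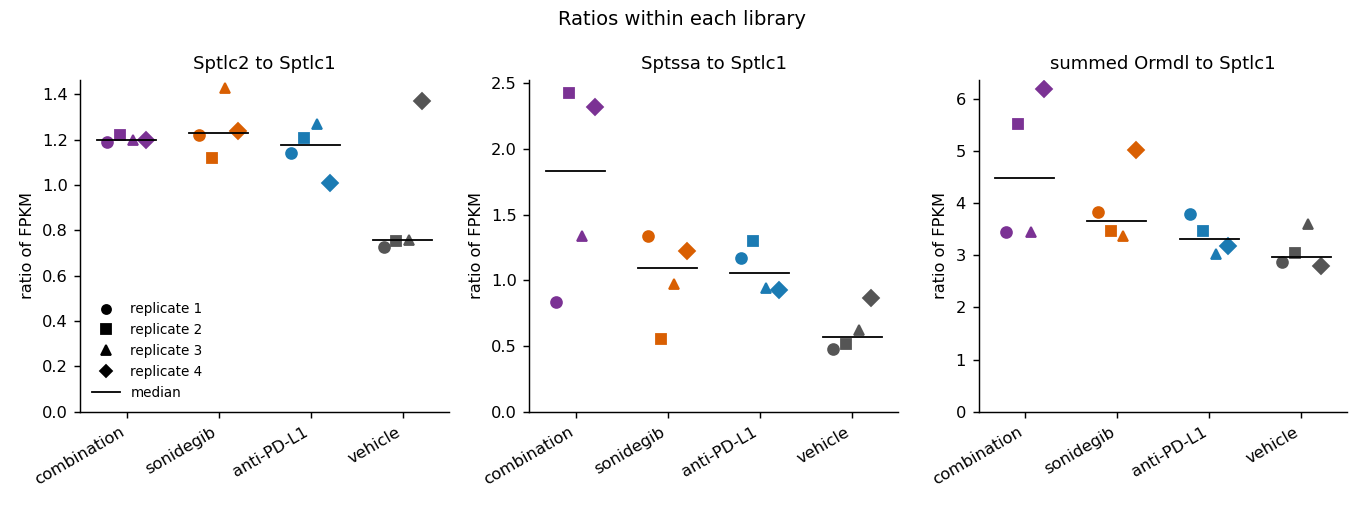
Ratios of FPKM within each library (vertical axes, starting at 0) for Sptlc2, Sptssa and the summed Ormdl genes over Sptlc1, by group, with a marker shape per replicate and a line at the group median. The Sptlc2 ratio is within 1.19 to 1.22 in the combination tumours, and vehicle replicate 4 stands apart from the other 3 vehicle tumours in that panel.

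Between members over the 16 libraries, Sptssa and Ormdl1 had the closest profiles (Pearson r of log2(FPKM + 1) 0.97), followed by Ormdl1 and Ormdl2 (0.93) and by Sptssa and Ormdl2 and by Sptlc1 and Sptlc2 (0.89 each). Ormdl3 had r of 0.24 to 0.50 with the other 5. After the trends of each library against GC content and transcript length were removed, r was 0.84 for Sptssa with Ormdl1, 0.87 for Ormdl1 with Ormdl2, 0.65 for Sptssa with Ormdl2 and 0.47 for Sptlc1 with Sptlc2. Ormdl3 was then at 0.42 with Sptssa, 0.49 with Ormdl1, 0.47 with Ormdl2, -0.02 with Sptlc2 and -0.34 with Sptlc1, while Sptlc1 was at -0.16 with Sptssa and 0.05 with Ormdl1. These values describe 16 libraries that share groups, depth and base composition, and carry no test.

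The genes most like each member over the whole table, by Pearson r over the 16 libraries and then by r with GC and length trends removed, were Tceal9 (0.991 and 0.93), Mospd1 (0.984 and 0.93) and Sarnp (0.982 and 0.90) for Sptssa. For Ormdl1 they were Eapp (0.992 and 0.94), Aptx (0.990 and 0.87) and Ube2w (0.986 and 0.93), and for Ormdl2 Nedd8 (0.979 and 0.69), Uqcrh (0.979 and 0.88) and Atpif1 (0.977 and 0.70). Sptlc1 was nearest to Setd3 (0.971 and 0.83), Tmed10 (0.965 and 0.83) and Chmp4b (0.960 and 0.44), and Sptlc2 to Actr3 (0.980 and 0.82), Tcf20 (0.974 and 0.86) and Usp12 (0.971 and 0.78). Ormdl3 had looser neighbours, Hexa (0.890 and 0.72), Gpr108 (0.884 and 0.81) and Mien1 (0.877 and 0.69). Sarnp, a neighbour of Sptssa in profile, overlaps the Ormdl2 locus on the opposite strand without sharing exon bases.

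Of the 3 members that rose, transcript GC content was 40.7% for Sptssa, 39.7% for Ormdl1 and 44.5% for Ormdl2. It was 45.3% for Sptlc2, close to that of Ormdl2, 47.7% for Sptlc1 and 56.6% for Ormdl3. The libraries differed in how levels ran with GC, measured as the slope of each library's log2 deviation against the GC fraction of the tested genes. The slope averaged -1.95 ± 2.75 with the combination, 0.0153 ± 2.06 with sonidegib, -0.829 ± 1.20 with anti-PD-L1 and 2.76 ± 2.24 with vehicle (log2 per unit GC fraction, SD, n = 4 each). Combination replicate 1, at 2.13, had the only positive slope of its group, and vehicle replicate 4, at -0.513, the only negative one of its group, and these are the libraries in which Sptssa and Ormdl1 stood lowest with the combination and highest with vehicle.

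Over the 16 libraries, Pearson r between this slope and log2(FPKM + 1) was -0.920 for Sptssa, -0.873 for Ormdl1 and -0.683 for Ormdl2, with Spearman rho of -0.921, -0.844 and -0.479. The slope is made from the levels of the tested genes themselves, so a gene of low GC content leans this way by construction, and the values are a description with no test. The 950 other genes within 1 GC point of Sptssa had a median r of -0.799 (quartiles -0.883 and -0.618), the 805 near Ormdl1 -0.806 (quartiles -0.890 and -0.628) and the 1384 near Ormdl2 -0.678 (quartiles -0.806 and -0.454). Sptssa was thus just beyond the lower quartile of its like, and Ormdl1 and Ormdl2 lay within the quartiles of theirs. Without the 2 libraries farthest from the median slope, r was -0.910 for Sptssa, -0.873 for Ormdl1 and -0.571 for Ormdl2, and as deviations from the group means it was -0.845, -0.765 and -0.406.

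Sptlc2, Sptlc1 and Ormdl3 also lay within the quartiles of genes of like GC content. Sptlc2 had r = -0.585 (rho -0.388) beside a median of -0.630, Sptlc1 r = -0.333 (rho -0.159) beside -0.481, and Ormdl3 r = 0.002 (rho 0.103) beside 0.225. Without the 2 farthest libraries r was -0.309 for Sptlc2, 0.098 for Sptlc1 and 0.398 for Ormdl3, so the values for Sptlc2 and Sptlc1 rest on those libraries.

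**Figure D4:**
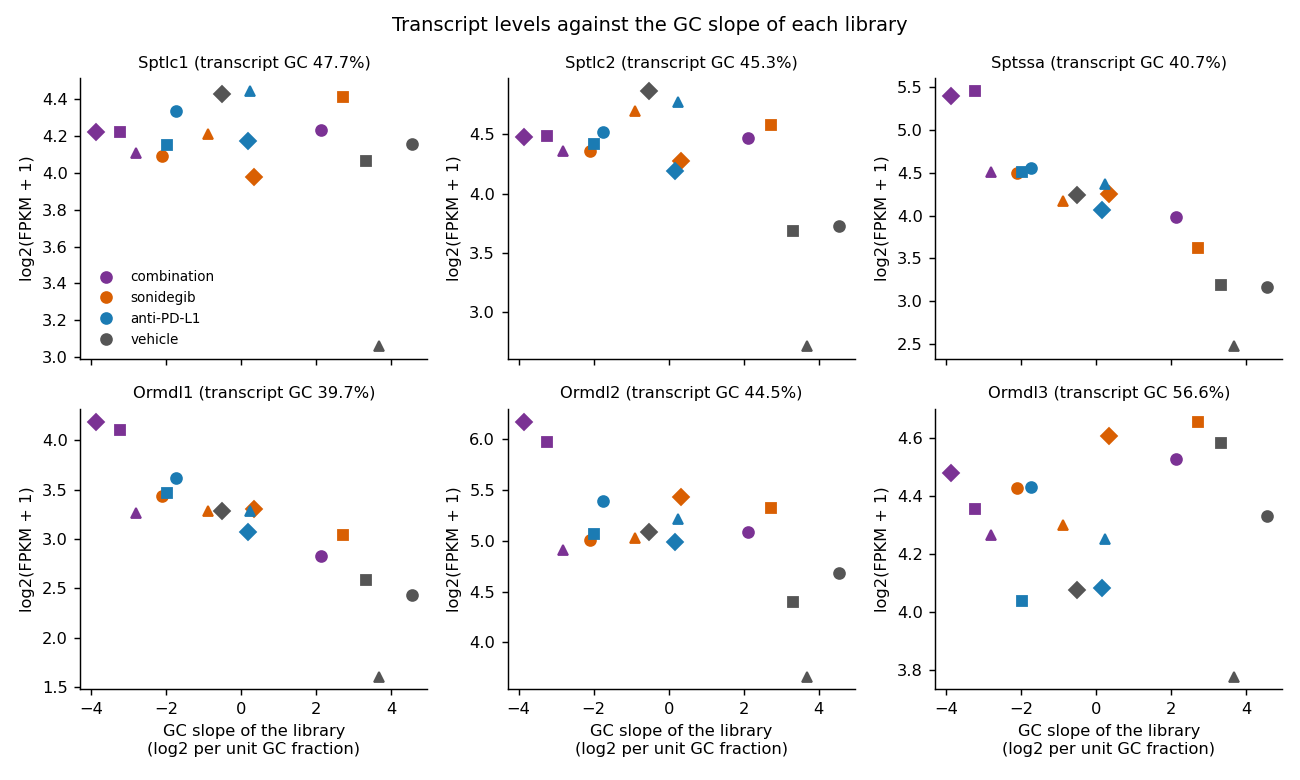
Log2(FPKM + 1) of the 6 tested members (vertical axes, not starting at 0) against the GC slope of each library (horizontal axes, log2 per unit GC fraction), coloured by group and with circle, square, triangle and diamond for replicates 1 to 4. Sptssa and Ormdl1 fall steadily as the slope rises, with r of -0.920 and -0.873, while Ormdl3 has r of 0.002, beside medians of -0.799, -0.806 and 0.225 over genes of like GC content.

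Genes of like GC content give a scale for the changes. With the combination, the median log2 change of the 951 tested genes within 1 GC point of Sptssa was 0.74, with quartiles of 0.42 and 1.05, beside 1.57 for Sptssa itself. For Ormdl1 the 806 such genes had a median of 0.77 (quartiles 0.42 and 1.08) beside 1.12, and for Ormdl2 1385 genes had 0.58 (quartiles 0.29 and 0.89) beside 1.08. Each of these 3 members lay above the upper quartile of its like. Sptlc2, at 0.70, lay between the median of 0.52 and the upper quartile of 0.81, Sptlc1, at 0.27, between the lower quartile of 0.08 and the median of 0.36, and Ormdl3, at 0.22, above the upper quartile of 0.17.

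When the GC trend of each library was removed before the fit, the change with the combination was 0.86 for Sptssa (limma adjusted p = 0.0473), 0.41 for Ormdl1 (adjusted p = 0.126) and 0.51 for Ormdl2 (adjusted p = 0.156), so that 1 of the 6 members passed where 3.61% of all genes did. With the trend against transcript length removed as well, Sptssa was at 0.71 (adjusted p = 0.0566), Ormdl1 at 0.42 and Ormdl2 at 0.39, none passed, and 0.166% of all genes did. Of genes under 42% GC, 23.4% passed in the combination without such a step, against 4.44% of genes at 54% GC or more. What part base composition has in the rise of Sptssa, Ormdl1 and Ormdl2 was not tested beyond these values.

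The calls also leaned on single libraries. Without vehicle replicate 4, the changes with the combination were 1.89 for Sptssa, 1.39 for Ormdl1 and 1.29 for Ormdl2 (limma adjusted p = 0.00335, 0.00459 and 0.00683), and Sptssa, Sptlc2, Ormdl1 and Ormdl2 then also passed with sonidegib and with anti-PD-L1. In that fit 32.8% of all genes passed with the combination, 26.3% with sonidegib and 26.0% with anti-PD-L1. Without vehicle replicate 3 the 3 changes were 1.30, 0.83 and 0.81 (adjusted p = 0.114, 0.126 and 0.122), when 0.0199% of all genes passed. Leaving out combination replicate 2 or 4 gave 1.36 and 1.38 for Sptssa (adjusted p = 0.139 and 0.144), with none of the members past the threshold. The share of all genes that passed without combination replicate 2 or 4 is not given here. The loss of calls there cannot be read as particular to the members. Over the 16 fits that leave out 1 library each, the change of Sptssa was 1.30 to 1.89 and passed in 11, that of Ormdl1 0.83 to 1.39 and passed in 5, and that of Ormdl2 0.81 to 1.29 and passed in 5. All 3 were higher with the combination in each of the 16 fits. Median-of-ratios scaling gave 1.26, 0.85 and 0.74 for the same 3 (adjusted p = 0.0272, 0.0359 and 0.049), with 18.4% of all genes past the threshold, and with no filter on low values none passed (adjusted p = 0.12, 0.123 and 0.122), where 0.0210% of 38045 genes did.

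**Figure D5:**
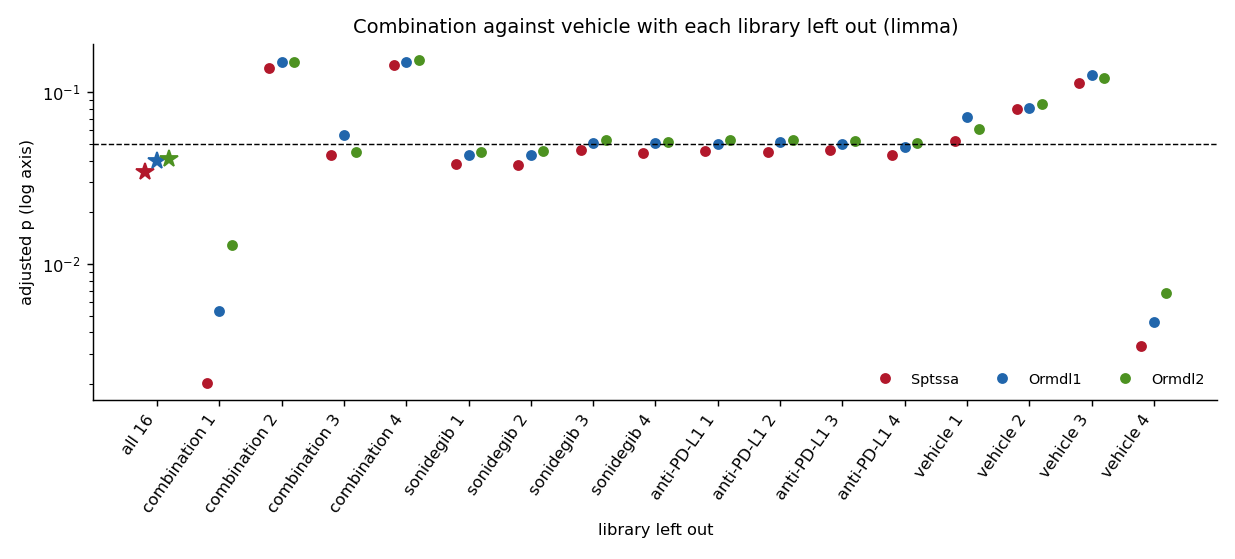
Limma adjusted p (log axis) of Sptssa, Ormdl1 and Ormdl2 for the combination against vehicle, with all 16 libraries (stars) and without each library in turn (dots). The dashed line marks 0.05, and all 3 genes lie above it without combination replicate 2 or 4 or without vehicle replicate 1, 2 or 3.

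Other features of the libraries also differed between combination and vehicle tumours. Summed over the 13 mitochondrially encoded genes, FPKM was 12620, 41949, 14152 and 38524 in combination tumours, against 7904, 3846, 3552 and 18642 in vehicle tumours, with the same libraries at the top of each group as for Sptssa. With sonidegib the sums were 17726, 9435, 12171 and 12057, and with anti-PD-L1 14800, 14528, 13714 and 9529. Of these 13 genes, 8 rose past the threshold with the combination against vehicle, where 10.3% of all tested genes did. Fibroblast markers (4 of 8 tested rose) summed to 177 to 497 FPKM in combination tumours, 159 to 282 with sonidegib, 135 to 325 with anti-PD-L1 and 129 to 181 with vehicle. Combination replicates 2 and 4 had the highest fibroblast sums of their group, as for Sptssa. Vehicle replicate 4, where Sptssa was highest of its group, had the lowest, at 128.7 FPKM.

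T cell markers (3 of 8 listed passed the filter, and all 3 rose) summed to 2.46, 20.68, 19.19 and 24.21 FPKM in combination tumours and 1.48 to 3.804 in vehicle tumours, with combination replicate 1 lowest in its group, as it was for Ormdl1, Sptssa and Sptlc3. They summed to 1.80 to 7.53 FPKM with sonidegib and 4.68 to 9.13 with anti-PD-L1. Macrophage markers (1 of 8 rose) summed to 289.5 to 399 FPKM with the combination and 198 to 327 with vehicle. Adipocyte markers (1 of 3 tested rose) summed to 8.46 to 140.3 FPKM with the combination and 2.10 to 19.2 with vehicle. None of the 9 luminal, 5 endothelial or 5 skeletal muscle markers tested passed, and no listed marker was at 0 in every library. Beside these marker counts, 10.3% of all tested genes rose with the combination against vehicle. T cell markers, low in vehicle tumours, may pass the filter mainly through groups in which they are high. Their count of 3 is therefore not a like comparison with that share. The part of these cell types in the levels of the 8 members was not tested.

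Of the 36 genes tested in 3 lists of the wider sphingolipid route, 0 passed the limma threshold with the settings used throughout. This held across the 4 groups, in the 6 pairs of groups and in the interaction. For the combination against vehicle, 11.3% of all tested genes passed. There 5 of the 36 had an unadjusted p under 0.05, beside 5081 of all 15105 tested genes. Downstream of serine palmitoyltransferase, the list of de novo steps (the ketosphinganine reductase Kdsr, the ceramide synthases, the desaturases and the ceramide transfer protein) had 8 of 10 genes tested and a median log2 change of 0.29 with the combination. Turnover and complex sphingolipids, with 20 of 23 tested, had a median of 0.09, and the supply of serine, with 8 of 8 tested, a median of 0.18. Over all tested genes the median was 0.257, and over the 6 members of the family 0.890.

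Among those lists the largest change with the combination was that of Asah1, acid ceramidase, which splits ceramide in lysosomes, at 20.97 ± 8.03 FPKM in combination tumours and 10.52 ± 5.55 in vehicle tumours (SD, n = 4 each; log2 change 0.97, SE 0.32, limma adjusted p = 0.056). Slc6a14, an amino acid transporter, stood at 5.48 ± 3.08 FPKM in combination tumours and 2.43 ± 1.35 in vehicle tumours (0.86, SE 0.36, adjusted p = 0.109). Sphk1, which makes sphingosine-1-phosphate, was at 10.4 ± 9.06 FPKM with the combination and 13.8 ± 3.32 with vehicle (-0.61, SE 0.52, adjusted p = 0.431).

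With sonidegib or anti-PD-L1 alone, the log2 changes of all 6 tested members had a positive sign, with medians of 0.733 and 0.718 beside 0.331 and 0.301 over all genes. Sptlc1 and Ormdl3 lost that sign under median-of-ratios scaling in both. Under limma 0 of 6 members and 0% of all genes passed in either comparison (4 of 6 members, and 4131 and 3712 genes, had an unadjusted p under 0.05). Between the combination and anti-PD-L1 the members lay between -0.08 for Sptlc1 and 0.46 for Sptssa, and between the combination and sonidegib between -0.09 for Ormdl3 and 0.70 for Sptssa. None passed there (0 of 6 at an unadjusted p under 0.05), where 0.00662% and 0% of all genes did (873 and 647 at an unadjusted p under 0.05). Sonidegib against anti-PD-L1 gave -0.24 for Sptssa to 0.30 for Ormdl3, again with 0 of 6 at either level and 0% of all genes (316 at an unadjusted p under 0.05).

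The interaction of the drugs, which asks whether the combination departs from the sum of both single changes on the log2 scale, was not past the threshold for any member. It ran from -0.75 for Sptlc2 (SE 0.45, limma adjusted p = 0.49) to -0.10 for Ormdl3 (SE 0.30, adjusted p = 0.879), with the signs of Sptlc1, Sptssa, Ormdl2 and Ormdl3 turned by median-of-ratios scaling, beside a median of -0.354 over all genes, of which 0.00662% passed (1492 at an unadjusted p under 0.05, and 0 of 6 members). Across the 4 groups as a whole, the comparison that the study names first, no member passed the F test, with adjusted p of 0.162 for Sptssa, 0.165 for Ormdl1, 0.17 for Ormdl2, 0.258 for Sptlc2, 0.571 for Ormdl3 and 0.689 for Sptlc1. There 0.0199% of all genes passed, and 3 of the 6 members, Sptssa, Ormdl1 and Ormdl2, had an unadjusted p under 0.05, beside 3579 of all genes. Without vehicle replicate 4 the adjusted p of the F test was 0.0121 for Sptssa, 0.0145 for Sptlc2, 0.0194 for Ormdl1 and 0.0348 for Ormdl2, with 22.0% of all genes past the threshold. Without combination replicate 1 it was 0.0175 for Sptssa and 0.0367 for Ormdl1, with 12.1% of all genes past it.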

How the data were processed

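RNA of 16 mouse tumours was sequenced. Per the labels' protocols, Qiazol RNA went into stranded libraries after ribosomal RNA was depleted, while another label names polyadenylated RNA, a conflict that was not resolved. The authors deposited FPKM for 55146 genes. The submitters' processing notes name TopHat, Cufflinks, GRCm38.p6 and mm10, and the sources used here give no versions. FPKM divides by length and mapped fragments, so very abundant transcripts shift all others, and Cufflinks shares fragments of overlapping genes by a model. Whole reads could not be recovered, and the depth is an estimate from 4908 genes with 1 transcript over 2000 bases. The library numbers run through the groups in turn, so library order and treatment cannot be told apart.

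Columns were matched to libraries by the number in their labels. Genes that reached 1 FPKM in 4 or more libraries (15105) were fitted as log2(FPKM + 1) with limma 3.58.1 in R 4.3.3, 1 mean per group, intensity trend and robust variance. This scale understates the change of low genes. Tests were two-sided with Benjamini-Hochberg adjustment at 0.05, and the fit was checked on simulated data. Sptlc3, under the filter, had exact permutation tests in SciPy 1.17.1. Loci and GC content (longest transcript) came from GENCODE M21, and 54468 identifiers matched. Other settings were a pseudocount of 0.1, no filter, median-of-ratios scaling, removal of GC or GC and length trends, a replicate block and leaving out each library. The 8 members are named whatever their test, and the 3 largest changes are named where a pathway list had no call. The 3 tested genes of highest correlation, predicted and clone names left out, are named as most like each member. The members and lists were chosen with earlier results of these data known. The marker gene Acta1 was not analysed here. Protein sequences were not used here.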

Additional observations from a re-analysis of the deposited data

Results flagged for a closer look

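In 2 of the 28 groups of 4 values that were examined (7 members with signal in 4 groups), 1 tumour stood apart from the other 3 by Dixon's criterion, which chance meets in about 1 in 20 groups. Both were combination replicate 3, the lowest of its group at 16.2 FPKM for Sptlc1 and at 19.6 FPKM for Sptlc2. Its gap to the next tumour was 0.881 of the range for Sptlc1 and 0.86 for Sptlc2, above the critical value for 4 samples. The ranges themselves are narrow, 16.24 to 17.82 FPKM and 19.57 to 21.48 FPKM, and the Sptlc2 to Sptlc1 ratio of that tumour, 1.20, was that of its group.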

How the results depend on the processing

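For the combination against vehicle, 3 members passed the threshold, beside 11.3% of all genes. The count was also 3 with a pseudocount of 0.1, with median-of-ratios scaling and with the replicate number as a block. Under median-of-ratios scaling 18.4% of all genes passed, and the shares for the pseudocount and the block are not given here. The count was 0 without a filter (0.0210% of all genes), 1 with the GC trend removed (3.61%) and 0 with GC and length trends removed (0.166%). Leaving out 1 library at a time it ranged from 0 to 4, as did the counts for sonidegib against vehicle, anti-PD-L1 against vehicle and the 4 groups together, where the main count was 0. The 4 came without vehicle replicate 4, when 22.0% to 32.8% of all genes passed, and across groups it was 2 without combination replicate 1, when 12.1% did. Without a filter the changes were the same. More genes then entered both the variance fit and the adjustment, and their parts in the lost calls were not tested.

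Deviations of same-numbered libraries had r of -0.434 to 0.343 over 24 pairs, 4 of them over 0.1. By these deviations 0 of 16 libraries was closest to its own number. No pairing by number was seen, but these values cannot tell whether tumours share a donor or batch. With the replicate block Sptssa, Ormdl1 and Ormdl2 had limma adjusted p of 0.0337, 0.0457 and 0.0393 for the combination against vehicle.

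Signs turned in 58 alternatives, none of a called value. In the order median-of-ratios scaling, GC trend removed, GC and length trends removed, Sptlc1 became -0.056, -0.099 and -0.116 for the combination, -0.166, -0.179 and -0.188 for sonidegib and -0.034, -0.061 and -0.060 for anti-PD-L1, each against vehicle. In the same order the interaction became 0.144, 0.141 and 0.133 for Sptlc1, 0.048, 0.076 and 0.103 for Sptssa, 0.118, 0.166 and 0.185 for Ormdl2 and 0.380, 0.082 and 0.084 for Ormdl3. Under median-of-ratios scaling Ormdl3 was -0.120 for the combination, -0.116 for sonidegib and -0.384 for anti-PD-L1 against vehicle, and Sptlc2 0.035 for the combination against anti-PD-L1, 0.063 against sonidegib and -0.028 for sonidegib against anti-PD-L1. With GC and length trends removed Ormdl3 was -0.004 for anti-PD-L1 against vehicle and 0.081 for the combination against sonidegib (0.095 with GC alone), Sptlc2 0.068 for the combination against anti-PD-L1 and 0.001 against sonidegib, and Ormdl1 0.003 for sonidegib against anti-PD-L1 (0.001 with GC alone). Scaling by the median of ratios itself moved the median of all genes to 0.010 for the combination, 0.012 for sonidegib and -0.001 for anti-PD-L1. The cause of the other turns was not tested.

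Leaving out single libraries, Sptlc1 ranged from -0.020 to 0.437 for the combination against vehicle, -0.043 to 0.415 for sonidegib against vehicle and -0.042 to 0.103 for the combination against sonidegib. Ormdl3 ranged from -0.128 to 0.141 for anti-PD-L1 against vehicle and -0.234 to 0.035 for the interaction. Sptlc2 ranged from -0.119 to 0.076 for the combination against anti-PD-L1, -0.093 to 0.049 against sonidegib and -0.094 to 0.101 for sonidegib against anti-PD-L1, where Ormdl2 ranged from -0.048 to 0.105 and the Sptlc3 difference from -0.123 to 0.0798 FPKM. For Sptlc3, vehicle replicates left out in turn gave exact p of 0.0857 to 0.114 for the combination against vehicle, with no overlap. Low fragment numbers limit Sptlc3, and nothing can be said of Sptssb.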
